A study of Mus musculus with 5 samples.

Results

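Somatostatin (Sst), islet amyloid polypeptide (Iapp), CART prepropeptide (Cartpt), urocortin 3 (Ucn3) and tachykinin 1 (Tac1) encode peptides that enteroendocrine cells (EECs) of the mouse small intestine make beside hormones such as Cck and Ghrl. The genes were taken by symbol and are 5 of 27998 genes in the scRNA-Seq table and 5 of 22042 genes in the bulk RNA-Seq table. The study profiled which hormones and signalling genes EECs carry, and how a meal acts on cells of the Cck lineage. Its scRNA-Seq data are 1 droplet library of sorted epithelial cells of the Neurog3 lineage, pooled from 4 mice, and its bulk data are 12 libraries of sorted tdTomato+ (CCK+) and tdTomato- (CCK-) cells. The droplet mice were Neurog3-Cre; R26-LSL-tdTomato on C57Bl/6J, 6 weeks old and untreated. The bulk mice were Cck-Cre; R26-LSL-tdTomato on C57Bl/6J, 6 to 8 weeks old, and were either fasted overnight (libraries A, B and F) or, after such a fast, given the liquid food Ensure (refed; libraries C, D and E). Each of the 4 bulk groups holds 3 libraries, and the same letters recur in both sorts. Whether libraries that share a letter come from 1 mouse is not stated in the labels. Both drivers are lineage labels, which mark every descendant of a cell that once used the promoter, whether or not Cck or Neurog3 is still on. The pool of mice in 1 droplet library leaves no spread between animals there.

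Somatostatin is the product of D cells and restrains the release of many gut and islet hormones. Iapp, or amylin, is best known from islet beta cells, where it is released with insulin, and acts through the calcitonin receptor paired with Ramp proteins. Tac1 encodes substance P and neurokinin A, Ucn3 is a ligand of the corticotropin-releasing hormone receptor Crhr2, Cartpt encodes the CART peptides, and the enterochromaffin (EC) cells in which several of these are found make serotonin through the enzyme Tph1.

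In the droplet library, 9451 of 737280 barcodes had more than 1000 genes and less than 10% mitochondrial UMIs, with a median of 5984 UMIs and a range of 1754 to 65130. They were split by UMIs per 10000 of the cell's total into a Cck-high range (Cck at 500 or more, 1246 cells), a Tph1 range (Tph1 at 10 or more, 2492 cells), Gip-high (133 cells), Ghrl-high (134 cells) and Sst-high ranges (54 cells, all at 500 or more), and the rest (5392 cells). Cells that met several rules went first to the Cck-high and then to the Tph1 range. This placed 467 cells of the Cck-high range and 38 of the Tph1 range. Gip, Ghrl and Sst were not counted as separate rules, and Sst-high cells reached Ghrl at 1397 and Gip at 1461. The ranges are of a hormone's level and not cell types. Near the limits, 150 cells lay just below and 166 just above the Tph1 limit (8 to 12.5 per 10000), 40 and 42 at the Cck limit (400 to 625), and 1 and 1 at the Sst limit. The Tph1 range was shallow, and of its cells 901 had more than 1500 genes and 806 lay above the Cell Ranger 2 UMI limit. No doublets were called, so a cell of several hormones may be a doublet. Levels are given as summed UMIs per 10000 with exact Poisson 95% intervals, and shares of cells with exact binomial 95% intervals. Both cover counting error in 1 library only, and no test was made between ranges. As a cell type that should lack the genes, 1725 cells of the rest with Muc2 at 10 or more and no Chga UMI served as the goblet reference, and 410487 barcodes of 1 to 100 UMIs gave the free RNA.

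Sst and Iapp were found in the same cells. The Sst-high range was chosen by Sst, so its Sst level of 2543 per 10000 is a description. The rule did not use Iapp, and each of the 54 cells held an Iapp UMI, at 123 per 10000 (95% interval 119 to 127). The next level was 0.349 (0.313 to 0.389) in the Tph1 range, which is 352-fold lower. Iapp in Gip-high (0.107), Cck-high (0.0729), rest (0.0557) and Ghrl-high cells (0.0293, 3 UMIs) followed in that order, each with an interval that overlapped the next. Within the Sst-high range the median cell had Iapp at 121 and Sst at 2782 per 10000, and the top 10% of cells held 25.6% of its Iapp UMIs and 18.6% of its Sst UMIs, so neither rested on a few cells. Hhex, a transcription factor gene of D cells, had a UMI in 47 of the 54 cells and Tph1 in 17. The 5 D cell markers used here (Sst, Hhex, Isl1, Rbp4 and Pdx1) summed to 2570 per 10000 in Sst-high cells, mostly Sst. Not all of them were highest there. Rbp4 was at 35.5 in Gip-high cells, more than that sum leaves for it beside Sst in Sst-high cells.

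The promoters of this pair are shown because the genes were high in the same cells. Sst (ENSMUSG00000004366) lies at chr16:23889573-23890958 on the minus strand, and Iapp (ENSMUSG00000041681) at chr6:142298423-142303961 on the plus strand, in the GENCODE annotation of GRCm38. The 250 bases before each RefSeq start (GRCm38.p6) are chr16:23890845-23891094 (minus strand) and chr6:142298175-142298424 (plus strand), printed 5′ to 3′, with a cAMP response element (CRE, TGACGTCA) in capitals where it occurs. The 2 annotations place the start of Sst at different bases, and the printed window follows RefSeq.
Sst: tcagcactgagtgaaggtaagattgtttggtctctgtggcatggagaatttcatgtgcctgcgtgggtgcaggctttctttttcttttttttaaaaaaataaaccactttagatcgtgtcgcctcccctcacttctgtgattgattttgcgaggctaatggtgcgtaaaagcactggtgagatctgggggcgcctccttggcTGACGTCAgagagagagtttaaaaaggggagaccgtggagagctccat
Iapp: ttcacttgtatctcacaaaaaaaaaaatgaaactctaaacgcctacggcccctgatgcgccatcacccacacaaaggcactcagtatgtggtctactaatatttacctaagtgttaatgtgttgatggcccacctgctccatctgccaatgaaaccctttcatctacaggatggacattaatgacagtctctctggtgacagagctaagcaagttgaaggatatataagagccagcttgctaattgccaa
All 5 genes matched a RefSeq promoter. The CRE letters begin 48 bases before the start of Sst and are not in the Iapp window. They were in 2 of the 5 windows, Sst and Cartpt, and in 1.55% of 32851 promoters of the same length (508), searched on both strands. TATAAA was in none of the 5 windows (12.4% of all promoters) and CANNTG, the E-box letters, was in all 5 (66.2% of all). A match is a description of letters and not of a bound site.

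In the Tph1 range most Sst and Iapp UMIs lay in a few cells. There, 6 cells also had Sst at 500 or more, and they held 5505 of the range's 7221 Sst UMIs and 245 of its 335 Iapp UMIs. Without these cells the range had Sst at 1.80 (1.71 to 1.88) and Iapp at 0.0942 (0.0757 to 0.116) per 10000. The 6 cells had Cartpt at 13.6 (10.2 to 17.7), close to the 14.8 of the other cells of the range, beside Iapp at 62.7 (55.1 to 71.1), and whether they are doublets was not tested. In the rest, 26 of 5392 cells had Sst at 10 or more and held 49.9% of its Sst UMIs, and 4 cells with Iapp at 10 or more held 23.3% of its Iapp UMIs. The other UMIs were spread widely. A Sst UMI was seen in 42.8% of rest, 38.5% of Cck-high and 28.9% of Tph1 range cells, and in 39.0% of the goblet reference.

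The ratio of the pair, looked at after the levels were seen, changed little between ranges. Iapp came to 48.3 UMIs per 1000 Sst UMIs (46.8 to 49.9) in Sst-high cells, 46.4 (41.5 to 51.8) in the Tph1 range and 45.4 (34.4 to 58.8) in Cck-high cells. It was 50.3 (37.0 to 66.8) in the goblet reference and 44.9 (35.6 to 55.9) in free RNA. The ratio in those cells was thus within counting error of that in free RNA. The rest had 39.2 (34.4 to 44.4), below the interval of Sst-high cells, and Gip-high cells had 127 (58.4 to 245) from 10 Iapp UMIs.

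**Figure D1:**
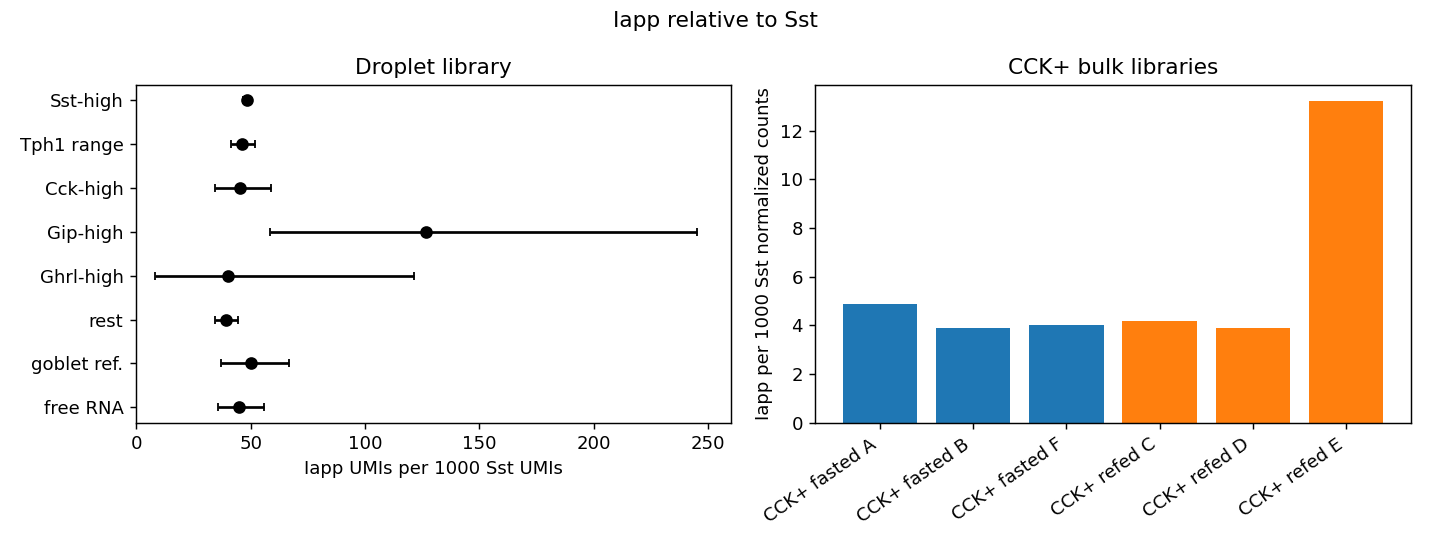
Iapp relative to Sst. Left, Iapp UMIs per 1000 Sst UMIs (x axis) in each range of the droplet library, with points for the ratio and bars for 95% counting intervals; all but Gip-high cells (127) lie between 39.2 and 50.3. Right, Iapp per 1000 Sst normalized counts (y axis) in each of the 6 CCK+ bulk libraries (blue fasted, orange refed); refed library E stands at 13.2 and the others at 3.87 to 4.89.

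Most Sst-high cells carried a further hormone, which was examined after the levels were seen. Ghrl, the ghrelin gene, had a median of 233 per 10000 over the 54 cells and was at 100 or more in 38 of them. Pyy was at 100 or more in 10 cells (median 4.93), Gip in 4 (median 11.1) and Cck in 0 (median 9.69). Iapp was at 127 per 10000 (123 to 132) in the 44 cells with Ghrl, Pyy, Gip or Cck at 100 or more and at 104 (95.9 to 113) in the other 10 cells, at nearly equal Sst (2541 and 2554). The pancreatic islet genes Ins1, Ins2, Mafa, Nkx6-1 and G6pc2 had no UMI among the 305360 of the Sst-high cells, which allows a level of up to 0.0982 per 10000 for each at 3 UMIs (0.121 as the upper end of the exact Poisson interval), and all 54 UMIs of Ppy, pancreatic polypeptide, came from 1 cell.

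Cartpt was a gene of the Tph1 range. Its level there was 14.8 per 10000 (14.5 to 15.0), and the range held 83.5% of the Cartpt UMIs of all cells. Cck-high cells followed at 1.10 (1.03 to 1.17), which is 13.4-fold lower, and Gip-high (0.601), Sst-high (0.491), rest (0.390) and Ghrl-high cells (0.264) had intervals that overlapped their neighbours in this order. A Cartpt UMI was seen in 72.2% of Tph1 range cells (70.3 to 73.9%) at a median of 3226 UMIs, against 12.9% of the goblet reference (11.4 to 14.6%) at 6264 UMIs. Thinned to 2000 UMIs per cell, which left out 58 cells of the Tph1 range for depth, the shares were 64.3% and 4.41%. Within the range the level varied widely, from a median of 7.70 per 10000 to 48.2 at the 90th percentile and 305 in the highest cell.

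Cartpt (ENSMUSG00000021647) lies at chr13:99898489-99901091 on the minus strand in GENCODE (GRCm38). The 250 bases before its RefSeq start, chr13:99900684-99900933 (minus strand, GRCm38.p6), are shown as the other window with a CRE, in capitals 112 bases before the start. GENCODE also holds a Cartpt transcript that begins further upstream.
Cartpt: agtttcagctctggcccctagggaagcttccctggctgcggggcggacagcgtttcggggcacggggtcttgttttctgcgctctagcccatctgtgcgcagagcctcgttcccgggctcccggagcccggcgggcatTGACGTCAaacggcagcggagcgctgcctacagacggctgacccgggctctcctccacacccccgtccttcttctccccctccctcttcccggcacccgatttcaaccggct

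Tac1 was also highest in the Tph1 range, where it was gathered in part of the cells. Its level was 6.73 per 10000 (6.57 to 6.90), 11.8-fold above the next range, Gip-high cells at 0.569 (0.426 to 0.744). The rest (0.503), Cck-high (0.419), Sst-high (0.196) and Ghrl-high cells (0.0978) came after, and of these neighbours the intervals of the rest and Cck-high cells alone were apart. A Tac1 UMI was found in 40.7% of Tph1 range cells (38.8 to 42.6%) and in 8.41% of the goblet reference (31.7% and 2.72% after thinning). The top 10% of Tph1 range cells held 77.0% of their Tac1 UMIs, and the median cell had none.

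Ucn3 was sparse. It reached 1.14 per 10000 (1.07 to 1.20) in the Tph1 range, with a UMI in 17.4% of cells (15.9 to 19.0%; 13.2% after thinning), and 0.193 (0.164 to 0.226) in Cck-high cells. Sst-high (0.0982, 3 UMIs), Gip-high (0.0751, 7 UMIs), rest (0.0472) and Ghrl-high cells (0.0293, 3 UMIs) could not be ordered within counting error, and the Sst-high interval (0.0203 to 0.287) also took in the Cck-high level. The top 10% of Tph1 range cells held 83.1% of the range's Ucn3 UMIs. Ucn3 (ENSMUSG00000044988) lies at chr13:3940688-3945349 on the minus strand and Tac1 (ENSMUSG00000061762) at chr6:7554879-7565834 on the plus strand (GENCODE, GRCm38).

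**Figure D2:**
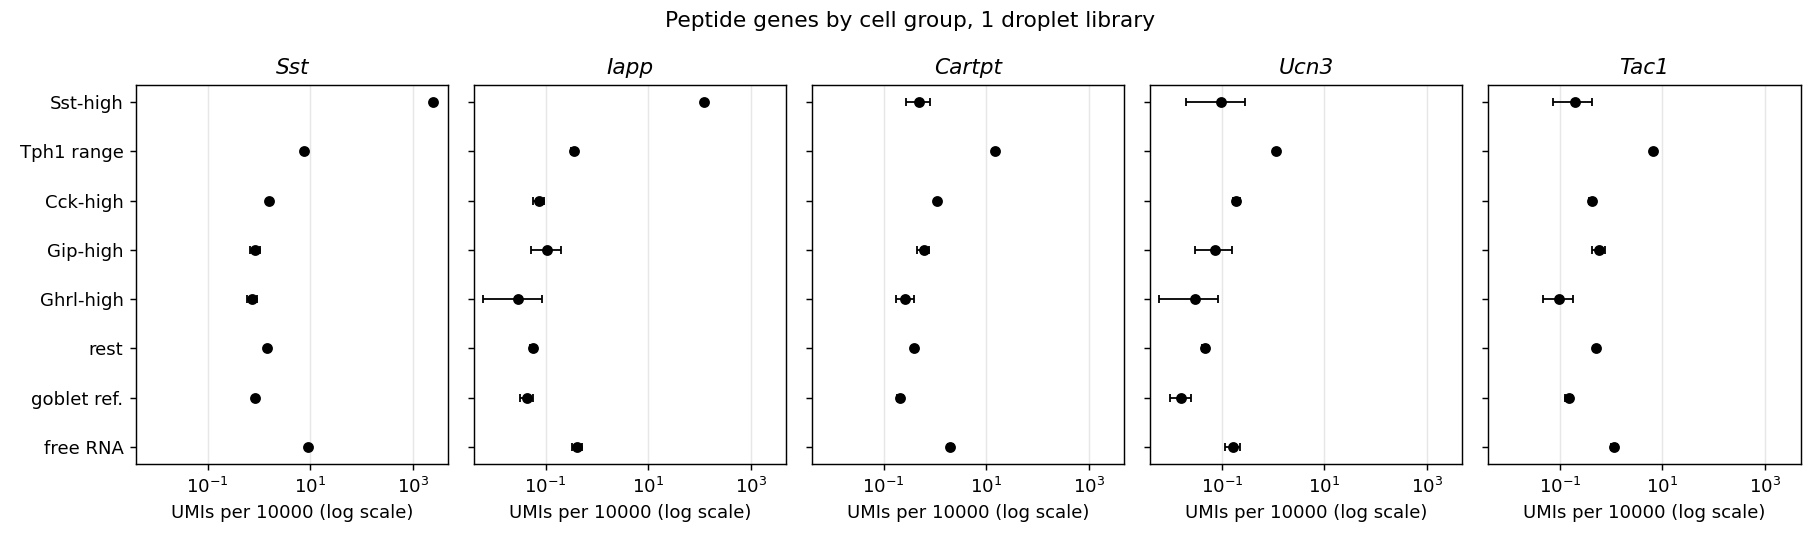
Level of each peptide gene (x axis, summed UMIs per 10000, log scale) in each range of the droplet library, the goblet reference and free RNA (y axis). Points are levels and bars 95% Poisson intervals; Sst and Iapp are highest in Sst-high cells (2543 and 123), Cartpt, Tac1 and Ucn3 in the Tph1 range (14.8, 6.73 and 1.14).

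Ucn3 followed Tac1 within the Tph1 range, whereas Cartpt did not. For this the range was divided by Tac1 after the levels had been seen, into cells with no Tac1 UMI (1478), with Tac1 above 0 and under 10 per 10000 (657) and with 10 or more (357), at median depths of 3129, 3494 and 3334 UMIs. At the limit of 10, 49 cells lay just below and 43 just above (8 to 12.5). Ucn3 was 0.275 per 10000 (0.233 to 0.323), 1.08 (0.959 to 1.21) and 4.68 (4.32 to 5.05) in that order. A Ucn3 UMI was seen in 6.77%, 21.0% and 54.9% of the cells. Cartpt was 15.3 (15.0 to 15.7), 14.6 (14.1 to 15.0) and 12.9 (12.3 to 13.5). Cartpt thus ran slightly the other way, and its share of cells with a UMI was 74.1%, 74.1% and 60.5%.

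Other EC genes also differed between these cells. Chga, a granule protein, was 85.5, 111 and 182 per 10000 from no Tac1 to 10 or more, whereas Sct, the secretin gene, was 685, 432 and 229. Tph1 itself was 40.8, 41.1 and 33.7. The cells with most Tac1 thus had the highest Chga and the lowest Sct of the 3, and each of these intervals was apart from the next.

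**Figure D3:**
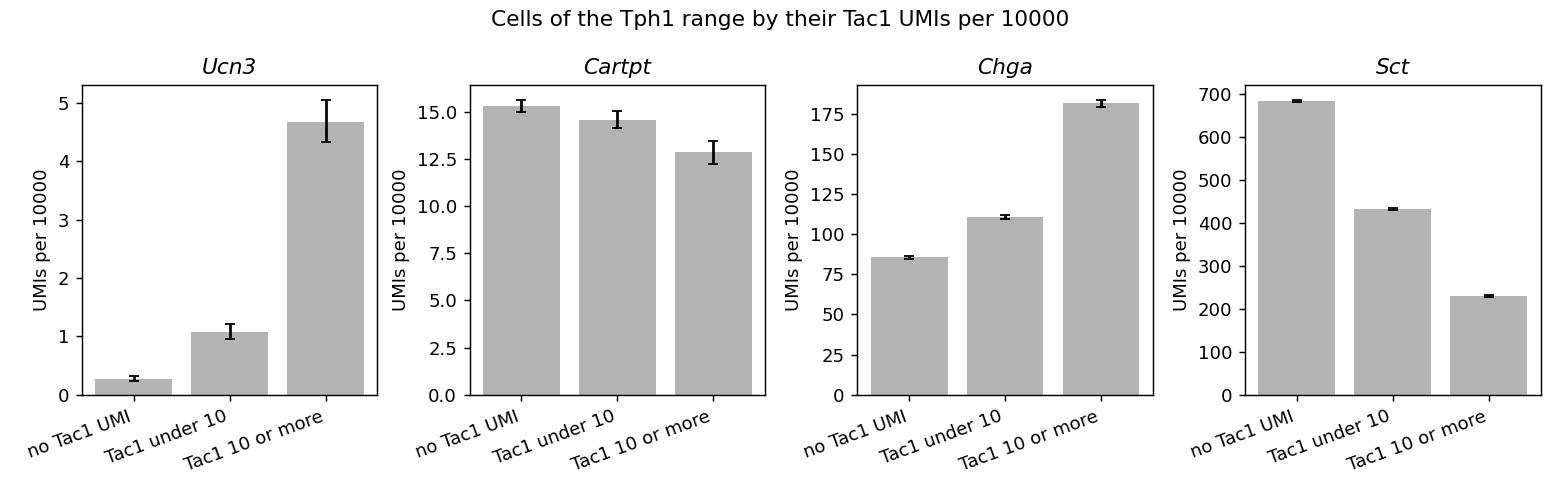
Ucn3, Cartpt, Chga and Sct (y axes, summed UMIs per 10000, from 0) in Tph1 range cells with no Tac1 UMI, Tac1 above 0 and under 10, and Tac1 at 10 or more (x axis). Bars are levels with 95% Poisson intervals; Ucn3 goes from 0.275 to 4.68 and Sct from 685 to 229.

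In cells with at least 2 UMIs of a gene, which limits the part of free RNA, 214 of 285 Ucn3 cells also had Tac1 (75.1%, 69.6 to 80.0%), and these were 25.0% of the 855 Tac1 cells. Cartpt was seen in 138 of the Ucn3 cells (48.4%, 42.5 to 54.4%). Of the Tac1 cells 360 also had Cartpt (42.1%, 38.8 to 45.5%), which were 19.7% of the 1826 Cartpt cells. Iapp and Sst met in 76 of 91 Iapp cells (83.5%, 74.3 to 90.5%), or 6.86% of the 1108 Sst cells. Sst also met Cartpt in 159 cells, Tac1 in 78 and Ucn3 in 18, and Iapp met Cartpt in 18, Tac1 in 11 and Ucn3 in 4. In free RNA, Sst was the highest of the 5 genes at 9.21 per 10000.

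Cck-high cells held little Cartpt and Tac1. A split made after the levels were seen put 268 of them with Tph1 at 10 or more, which had 704 of the 904 Cartpt and 140 of the 345 Tac1 UMIs, beside 978 without. Cartpt was 3.94 (3.65 to 4.24) with Tph1 and 0.310 (0.269 to 0.356) without, near the 0.207 (0.182 to 0.235) of the goblet reference. Tac1 was 0.783 (0.659 to 0.924) and 0.318 (0.276 to 0.365), against 0.148 in the reference. The levels in Cck-high cells low in Tph1 were thus above those of the goblet reference, but the shares of cells with a UMI were not apart. They were 13.3% (11.2 to 15.6%) against 12.9% (11.4 to 14.6%) for Cartpt and 9.61% (7.84 to 11.6%) against 8.41% (7.14 to 9.82%) for Tac1. The reference was chosen without a Chga UMI, which 65.5% of rest cells had. Free RNA held Cartpt at 2.00 and Tac1 at 1.13 per 10000, and its part in these levels was not tested.

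Ucn3 in Cck-high cells depended less on Tph1. In the 978 Cck-high cells low in Tph1 it was 0.178 per 10000 (0.147 to 0.214), 9.71% of them had a UMI, and the 268 cells with Tph1 had 0.246 (0.179 to 0.330). Over all Cck-high cells, 10.0% had a Ucn3 UMI (8.42 to 11.8%) at a median of 6296 UMIs, against 1.10% of the goblet reference (0.664 to 1.71%) at 6264 UMIs, and 4.25% against 0.406% after thinning. Free RNA held Ucn3 at 0.164 per 10000 (0.113 to 0.231), an interval that took in the level of Cck-high cells low in Tph1. Its part in these levels was not tested. Cells low in Tph1 with Gcg and Pyy together at 10 or more, hormones of L cells, had Ucn3 at 0.261 (0.207 to 0.326, 488 cells), and those under 10 had 0.105 (0.0737 to 0.146, 490 cells). Tac1 was 0.357 and 0.284 in the same cells, with overlapping intervals.

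Set against Tac1, Ucn3 gave 461 UMIs per 1000 Tac1 UMIs (380 to 558) in Cck-high cells, 169 (158 to 180) in the Tph1 range, 146 (98.1 to 211) in free RNA, 110 (64.6 to 177) in the goblet reference and 94.0 (81.4 to 108) in the rest. The Cck-high ratio lay above the interval of each of these others and of Gip-high cells (132, 50.7 to 292). Ghrl-high (300, 53.1 to 1165) and Sst-high cells (500, 80.9 to 2341) had 3 Ucn3 UMIs each, and their intervals took in the Cck-high ratio. The ratio was chosen after the levels were seen.

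In the rest, most Tac1 UMIs were gathered in cells with EC genes. Tac1 was at 10 or more in 78 of 5392 cells, and these held 63.1% of the rest's Tac1 UMIs. All 78 had a Chga UMI and 74 a Tph1 UMI, which 3530 and 1983 of the 5392 rest cells had. Chga was at 75.8 and Tph1 at 5.00 per 10000 in the 78 cells, against 3.59 and 0.801 over the rest as a whole. For Cartpt there were 52 such cells, with 28.6% of its UMIs, and 51 of them had a Tph1 UMI below the limit of the Tph1 range. For Ucn3 there were 7, with 15.1% of its UMIs, so most Cartpt and Ucn3 UMIs of the rest lay in cells with less of the gene.

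The genes most like each peptide gene across the 4059 cells outside the rest were sought by Pearson's r of log-scaled levels among 10652 genes. The cells share 1 library, and depth and the sharp split between ranges enter each r, so these are descriptions. For Sst they were Iapp (0.74), the homeobox gene Hhex (0.70), Asic5 (0.47), Kcnk2 (0.46) and Rgs4 (0.45), and Iapp had Hhex (0.79), Sst and the same other 3. For Cartpt they were Chga (0.58), Tph1 (0.55), Krt19 (0.54), Krt7 (0.54) and Crip1 (0.52). For Ucn3 they were Tac1 (0.47), Afp (0.45), the ion channel gene Trpa1 (0.45), Gstk1 (0.43) and Vim (0.41). For Tac1 they were Vim (0.63), Gstt1 (0.55), Trpa1 (0.50), Fxyd6 (0.50) and Ucn3 (0.47). Ucn3 and Tac1 thus shared Trpa1 and Vim, which were not among the 5 nearest genes of Cartpt.

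Genes related to the 5 peptides were scarce. Over the 10 relatives (Cort, Calca, Calcb, Adm, Adm2, Ucn, Ucn2, Crh, Tac2 and Tac4), the summed level was 0.0823 per 10000 in the Tph1 range and 0.0243 in Cck-high cells, mostly Adm (0.0740 and 0.0170). In Sst-high cells 9 of the 10 were at 0. The goblet reference had 0.0967, so these genes were not above the level of cells outside the EEC ranges.

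Of 14 receptor genes, Ramp1 led in each range by UMIs, but it was highest in the goblet reference at 3.89 per 10000, against 1.49 in the Tph1 range and 0.720 in Cck-high cells. The somatostatin receptor genes Sstr1, Sstr2, Sstr3 and Sstr5 were above the reference in both of the large EEC ranges. Sstr1 was 0.343 (0.307 to 0.382) in the Tph1 range and 0.180 (0.152 to 0.211) in Cck-high cells, against 0.000856 in the reference. Sstr5 was 0.162 (0.137 to 0.189) and 0.220 (0.189 to 0.254), against 0.00942. Ramp2 was 0.0865 (0.0689 to 0.107) and 0.0899 (0.0706 to 0.113), against 0.00257, and Ramp3 was 0.0354 (0.0245 to 0.0495) in the Tph1 range and at 0 in the reference. Calcr, the receptor that Ramp proteins pair with for Iapp, was at 0 in each range, as were Crhr1, Tacr2 and Tacr3. Tacr1 had 1 UMI in Cck-high cells and Crhr2 had 3 in the Tph1 range and 1 in the rest. A count of 0 among the 9594888 UMIs of the Tph1 range allows a level of up to 0.00313 per 10000 at 3 UMIs (0.00384 as the upper end of the exact Poisson interval).

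Among 9 genes that cut or degrade peptides, the prohormone convertase gene Pcsk2 stood out in Sst-high cells at 1.605 per 10000 (1.19 to 2.12), against 0.0938 (0.0754 to 0.115) in the Tph1 range and 0.0182 in Cck-high cells. The other convertase gene, Pcsk1, was 2.78 (2.22 to 3.44), 4.08 (3.95 to 4.21) and 2.90 (2.78 to 3.02) in those ranges. By UMIs, the carboxypeptidase gene Cpe led the list in Cck-high (13.5), Gip-high (14.1), Ghrl-high (8.99) and Sst-high cells (8.42), and in the Tph1 range Pcsk1 and Cpe (4.06, 3.93 to 4.19) were within counting error of each other. Pam, which amidates peptide ends, was lower in Sst-high cells (0.786, 0.504 to 1.17) than in the Tph1 range (1.68, 1.597 to 1.762). Scg5, a partner of the Pcsk2 product, was 4.13 (3.44 to 4.91) and 2.35 (2.25 to 2.44). In the rest Dpp4 (0.384), Cpe (0.379) and Mme, neprilysin (0.362), were within counting error of each other, as were Mme (0.259), Ece1 (0.238), Dpp4 (0.230) and Cpe (0.223) in the goblet reference.

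The bulk libraries addressed whether these genes belong to the Cck lineage and whether a meal moves them. Values are the normalized counts of the deposited table, which summed to 7061155 to 9868241 in the 6 CCK+ and 9900561 to 11371114 in the 6 CCK- libraries, and the number of reads behind them is unknown. Cck was 14837 to 32592 in CCK+ and 27.6 to 86.0 in CCK- libraries, the order that the sort labels give. In bulk cells, fewer cells of a type and less RNA per cell cannot be told apart. CCK+ refed library E stood apart from the other 11. Ins1 was 356 and Ins2 161 there, both listed at 0 in each of the others, and Mafa was 23.6 against 4.12 or less, so results that rest on library E are given with and without it.

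All 5 peptide genes were higher in CCK+ than in CCK- cells. Sst in fasted CCK+ libraries A, B and F was 8925, 2812 and 4037, and in refed libraries C, D and E 7785, 4256 and 3293. In CCK- libraries it was 128, 18.2 and 34.6 fasted and 71.0, 118 and 76.0 refed. Every CCK+ library thus lay above every CCK- library, and library A was highest in both sorts. On the log2(normalized count + 1) scale the difference was 6.25 (SE 0.40, limma adjusted p = 4.19e-08).

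Iapp was 43.6, 10.9 and 16.3 in the fasted and 32.4, 16.5 and 43.5 in the refed CCK+ libraries. Among CCK- libraries it was 1.11 in fasted library A and listed at 0 in the other 5. CCK+ libraries were again all above CCK- libraries, at levels low enough that the log2 difference of 4.46 (SE 0.45, adjusted p = 3.48e-06) depends on the value added, being 5.32 with 0.5 and 1.77 with 10 in place of 1. It was 4.31 without library E.

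Cartpt was 157, 67.6 and 81.3 in the fasted and 163, 278 and 293 in the refed CCK+ libraries, and 0 to 9.59 in CCK- libraries. Ucn3 was 259, 97.1 and 262 in the fasted and 420, 390 and 548 in the refed CCK+ libraries, and 0 to 4.47 in CCK- libraries. Tac1 was 238, 127 and 307 in the fasted and 330, 388 and 826 in the refed CCK+ libraries, and 1.83 to 10.2 in CCK- libraries. For each of the 3 genes fasted library B was the lowest and refed library E the highest CCK+ library, and no CCK- library came near them. The log2 differences between sorts were 5.33 for Cartpt (SE 0.53, adjusted p = 2.69e-06), 6.84 for Ucn3 (SE 0.50, adjusted p = 1.34e-07) and 5.51 for Tac1 (SE 0.36, adjusted p = 4.32e-08).

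Of the 5 genes, 5 passed the test as higher in CCK+ cells, where 19.6% of all 22042 genes did (4324, with 3107 lower). Each was higher in 6 of 6 CCK+ libraries than in any CCK- library, and the exact two-sided permutation p was 0.00216 for each over 924 arrangements, the smallest they can give. These make no use of the letters. Exchange within letters alone, added after seeing the data, gave an exact permutation p of 0.0312 for each over 64 arrangements, also the smallest. Scaling all libraries to the same sum moved the median gene by 0.26 on the log2 scale and the share of calls that were higher from 58.2% to 84.1%, and the 5 differences remained between 4.76 and 7.20. Lymphocyte markers rose with the sort as well, 6 of 6 genes, with summed values of 3526 to 8223 in CCK+ and 350 to 909 in CCK- libraries and Gzma the most abundant, and their part in these results was not tested. Of 9 enteric neuron markers, which matter for Tac1 and Cartpt as neuronal genes, Nefl, Nefm, Elavl4 and Tubb3 rose, and the sum over all 9 was 134 to 308 in CCK+ and 20.9 to 39.1 in CCK- libraries. Nefm was the most abundant in every CCK+ library but fasted library B, where Chat was (181), and Nos1 in every CCK- library, whereas Vip was listed at 0 in all 6 CCK+ libraries. Nefm was also seen in the droplet library, at 0.261 per 10000 in Cck-high cells. Of the EEC lists, 6 of 7 EC, 4 of 5 D, 5 of 5 I, 5 of 5 K, 5 of 5 X, 4 of 4 N/L and 6 of 6 general EEC markers were higher in CCK+ cells. Of 6 enterocyte markers 5 were lower, of 6 goblet markers 2 were lower, and of 4 tuft and 4 Paneth markers none passed.

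**Figure D4:**
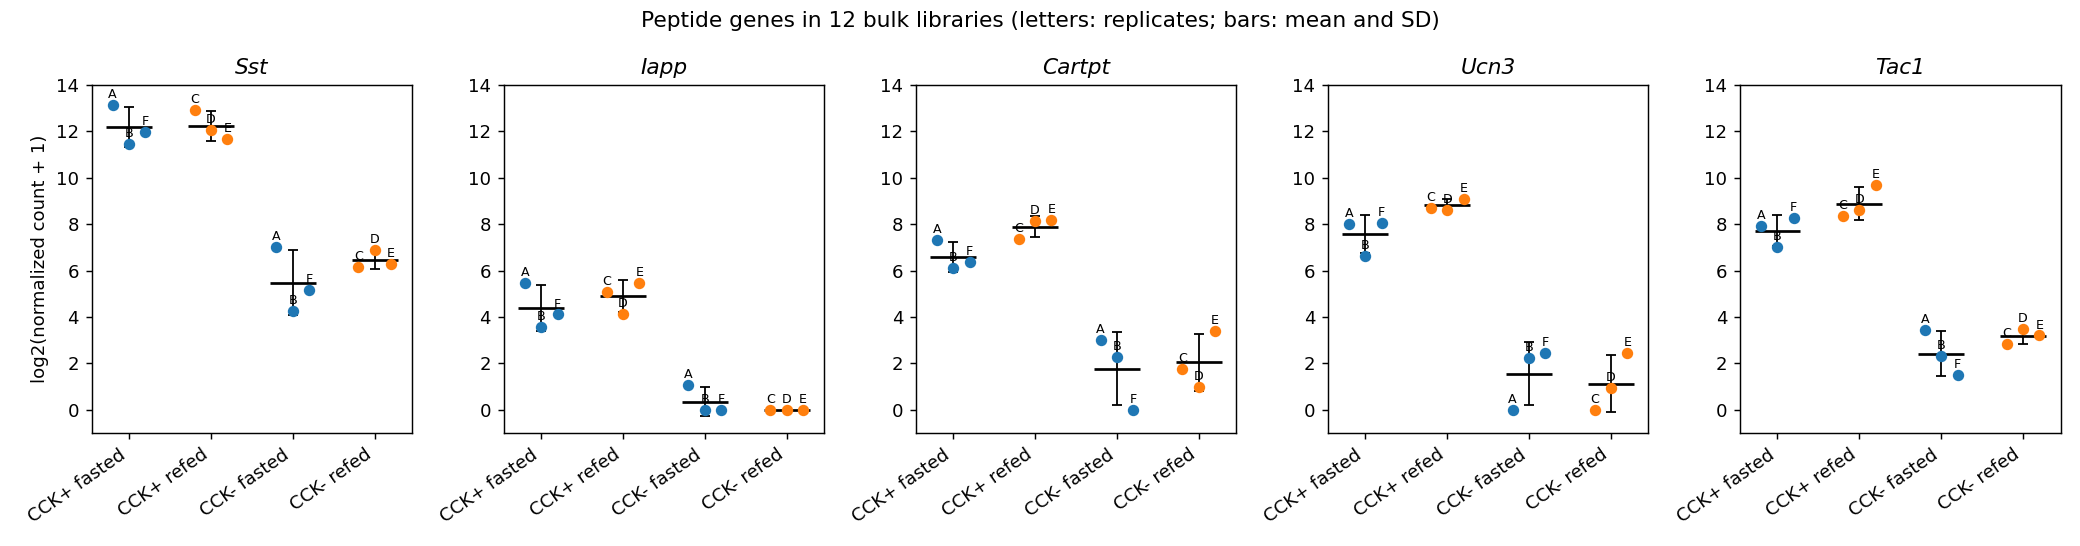
The 5 peptide genes in the 12 bulk libraries (y axis, log2 of normalized count + 1; x axis, the 4 groups of 3 libraries, blue fasted and orange refed, letters for replicates). Points are libraries, lines the group mean and bars the SD; every CCK+ point is above every CCK- point for each gene, and refed CCK+ points are above fasted ones for Cartpt, Ucn3 and Tac1.

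In CCK+ cells every refed library lay above every fasted library for Cartpt, Ucn3 and Tac1, by less than the model required for a call. The means were 102 ± 48.3 fasted and 245 ± 70.9 refed for Cartpt, 206 ± 94.4 and 452 ± 83.8 for Ucn3, and 224 ± 90.8 and 515 ± 271 for Tac1 (SD, n = 3). Log2 differences were 1.30 for Cartpt (95% interval −0.29 to 2.90, limma adjusted p = 0.409), 1.25 for Ucn3 (−0.25 to 2.75, adjusted p = 0.399) and 1.17 for Tac1 (0.089 to 2.24, adjusted p = 0.256). The lowest refed library was close to the highest fasted one for Cartpt (163 and 157) and Tac1 (330 and 307) and further off for Ucn3 (390 and 262). The exact permutation p was 0.1 for each, the smallest that 3 against 3 libraries can give. Every refed library was above every fasted one for 3 of the 5 genes, as for 10.8% of all genes. None of the 5 passed the test, where 1.31% of all genes passed it as higher. That share was 289 genes, part of 561 calls in both directions. The count in both directions was 119 without the trend, and 876, 193 and 351 without CCK+ fasted libraries A, B and F. It was 103 and 183 without CCK+ refed libraries D and E, and 333 without CCK- refed library D. None of the 5 passed in any of these. Without library E the differences were 1.15, 1.10 and 0.76, and without fasted library B that of Ucn3 was 0.78.

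Sst and Iapp showed no such order. Sst was 5258 ± 3234 fasted and 5111 ± 2365 refed, a log2 difference of 0.036 (−1.18 to 1.25). Its sign turned with single libraries, to −0.33 without fasted library B, −0.068 without fasted library F and −0.32 without refed library C. Iapp was 23.6 ± 17.5 and 30.8 ± 13.6, a log2 difference of 0.50 (−0.87 to 1.87), which was 0.094 without fasted library B, 0.21 without library E, 0.88 without refed library D and 1.05 without fasted library A. Fasted and refed libraries overlapped for both genes.

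Several other EEC genes, those of EC cells among them, had differences of the same sign as the 3 peptides. The summed normalized counts of the 7 EC markers, mostly Chgb, were 65505 to 153380 in fasted and 176820 to 248880 in refed CCK+ libraries, while Tph1 differed by 0.90 on the log2 scale (adjusted p = 0.248) and Chga by 0.91 (adjusted p = 0.142), and 0 of the 7 passed the test. The 6 general EEC markers, also mostly Chgb, summed to 62313 to 141870 fasted and 169630 to 233700 refed. Of the N/L markers, Nts was 2163 to 2605 fasted and 3796 to 7116 refed (log2 difference 1.26, adjusted p = 0.0945) and Pyy 378 to 713 and 855 to 1606 (0.98, adjusted p = 0.183), while the sums of the D, I, K, X and N/L lists overlapped between the states. Not all EEC genes had that sign. The D list had a median log2 difference of −0.26, and Acvr1c, of the X list, was 66.5 to 193 fasted and 29.2 to 69.5 refed (−1.43, adjusted p = 0.243), Hhex 20.2 to 33.2 and 12.3 to 22.5 (−0.55) and Isl1 130 to 354 and 149 to 214 (−0.46). Markers of other cells differed too, without a call. Paneth markers, mostly Lyz1, had a median log2 difference of 1.33 and summed to 847 to 13140 fasted and 5323 to 20499 refed, and enterocyte markers to 154180 to 273630 and 106030 to 175460. Of the enteric neuron markers, Nefm was 33.0 to 84.2 fasted and 160 to 221 refed (log2 difference 1.62, adjusted p = 0.192) and Tubb3 1.09 to 6.29 and 7.62 to 12.3 (1.28, adjusted p = 0.377), neither with overlap. Fasted library B, the lowest for the 3 peptides, had the highest enterocyte (273630) and lymphocyte sums (8223) of the CCK+ libraries. The part of these cells in the results was not tested. Relative to Tph1, a ratio taken after the values were seen, Tac1 was 15.4 to 31.4 per 1000 in fasted and 19.7 to 38.7 in refed libraries, and Ucn3 16.7 to 26.8 and 19.7 to 35.9. Both overlapped between the states. Cartpt was 8.32 to 13.5 per 1000 fasted and 13.7 to 14.1 refed, which did not overlap, though fasted library B (13.54) and refed library E (13.70) were close. Relative to Chga, Cartpt was 12.8 to 17.1 and 18.2 to 21.8, also without overlap, while Tac1 (23.0 to 48.2 and 30.5 to 51.3) and Ucn3 (24.6 to 41.2 and 30.6 to 49.9) overlapped. The share of all genes without overlap in such ratios was not computed, so that of Cartpt is a description. Whether refed sorts held more EC or other EEC cells was not tested.

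In CCK- cells none of the 5 genes differed between refed and fasted libraries by the test, where 1.23% of all genes did in either direction (272, but 66 without the trend and 79 to 268 with 1 library left out). Their log2 differences were 0.97 for Sst (adjusted p = 0.557), 0.75 for Tac1, 0.28 for Cartpt, −0.36 for Iapp and −0.42 for Ucn3, at levels where the signs for Cartpt and Ucn3 turned without single libraries. Leaving out 1 library gave 0.36 to 1.73 for Sst and 0.29 to 1.26 for Tac1. Whether the meal acted differently on the 2 sorts was tested as an interaction. None of the 5 passed, with log2 differences from −0.93 for Sst to 1.67 for Ucn3 (adjusted p 0.796 to 0.910), and 0.00454% of all genes did. This was 1 gene, Gvin1 (−6.55, adjusted p = 0.000161), named after its values were seen. At an unadjusted p under 0.05 there were 1378 genes in the interaction. With 1 library left out, the interaction differences were −1.70 to −0.33 for Sst and 1.11 to 2.45 for Ucn3, without a call.

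Iapp and the islet genes met in library E. Iapp was 13.2 per 1000 Sst there and 3.87 to 4.89 in the other 5 CCK+ libraries, although its Iapp value of 43.5 was matched by fasted library A (43.6), where Sst was 8925 against 3293 in library E. The 6 islet markers summed to 548 in library E, with Ins1 the most abundant, and to 6.87 or less in each of the other 11 libraries, among them the CCK- library of the same letter. Of the 6, none passed the test in any comparison, and Ppy was listed at 0 in library E. The part of these genes in the Iapp value of library E was not tested.

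Genes related to the 5 peptides did not follow the sort. Of 8 relatives measured, none passed the test in any of the 4 comparisons, with a median log2 difference of 0.24 between sorts (all genes 0.090) and a summed value of 14.2 to 53.2 in CCK+ libraries. Receptor genes did, in part. Of 11 measured, 6 were higher in CCK+ cells and 0 lower, where 19.6% of all genes were higher and 3107 of 22042 lower. On the log2 scale the differences were 5.95 for Sstr1 (adjusted p = 1.13e-07), 5.89 for Sstr3, 5.65 for Sstr5, 2.96 for Ramp2, 2.08 for Sstr2 and 1.69 for Ramp3. Sstr1 was 73.7 to 147 in fasted and 136 to 190 in refed CCK+ libraries and at most 3.16 in CCK- libraries. Crhr2, the receptor of urocortin 3, was listed at 0 in every library but CCK+ fasted library F (4.54) and CCK+ refed library C (2.16), and Tacr1, the substance P receptor, had a log2 difference of −1.03 (adjusted p = 0.205). Of the 6 genes called, 4 encode somatostatin receptors.

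Among the 9 processing genes, 6 were higher in CCK+ cells, namely Scg5 (6.60), Cpe (5.57), Pcsk1 (4.62), Pam (2.30), Pcsk2 (1.59) and Ece1 (1.39). Mme (−1.72) and Dpp4 (−1.40) were lower. Of all 22042 genes, 4324 were higher and 3107 lower. Ide did not pass (−0.39, adjusted p = 0.126). Pcsk2 was 25.3 to 60.0 in CCK+ and 7.91 to 30.8 in CCK- libraries, which overlapped, unlike those of Pcsk1 (1248 to 3258 and 71.3 to 173). None of the processing or receptor genes passed the test between refed and fasted cells of either sort or in the interaction.

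Across the 12 bulk libraries the genes most like each peptide gene, among 13031 genes with a mean of at least 10, had Pearson's r of 0.98 to 0.99. Since the libraries form separate clusters by sort, this r follows the sort and is given for the names alone. They included Ghrl, Soga1, Myt1 and Agr3 for Sst, Ccm2, Map1b, Rcn1, Sstr3 and Scn3a for Iapp, and Runx1t1, Slc39a8, Abcc4, Sstr5 and Camk2n2 for Cartpt. For Ucn3 they were Rcan3, Pyy, Ttr, Adgrg4 and Cadps, and for Tac1 Sox4, Dpysl3, Trim44, Apoa5 and Tpbg.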

How the data were processed

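Epithelial cells were measured by droplet scRNA-Seq (1 library) and bulk RNA-Seq (12 libraries). The droplet values are raw UMI counts per gene and barcode as deposited by the authors, made with Cell Ranger 2.0.1 per the submitters' processing notes. The bulk values are a signal, normalized counts that the authors made with Salmon 1.6.0 after Trim Galore 0.6.7 and scaled with DESeq2. They were not whole multiples of a step, so reads could not be recovered, and the study's count test could not be run. Group means were fitted to log2(value + 1) of all 22042 genes and 12 libraries with limma 3.58.1 (R 4.3.3; mean-variance trend, 8 residual degrees of freedom), with Benjamini-Hochberg adjustment over all genes and a threshold of 0.05. Differences on this scale understate those of low genes. No filter on low values was used. All UMI sums, their intervals and thinning were made in Python 3.11.15 with numpy 2.4.6 and scipy 1.17.1. The exact permutation tests were made in R, and the model was tested on simulated data. The named genes were the 5 peptide genes, the 5 genes nearest to each by Pearson's r, and the list genes that passed a test or led their list by level. Some genes of these sets are withheld and are not reported here. Members and lists were chosen with earlier results of these data known. Sequences are from RefSeq (GRCm38.p6) and gene positions from GENCODE (GRCm38). The notes name mm10 and GRCm39 as the builds used upstream. Alternatives were the pseudocount, a filter on low values, the trend, scaling, the letter as a block, leaving out each library, and the cell filters and limits.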

Additional observations from a re-analysis of the deposited data

How the results depend on the processing

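The sort differences of the 5 genes kept their sign and side of the threshold in each of the alternatives run, with log2 differences of 5.78 to 6.71 for Sst, 1.77 to 5.32 for Iapp, 3.57 to 5.84 for Cartpt, 4.64 to 7.68 for Ucn3 and 4.32 to 5.88 for Tac1. The labels do not say that CCK+ and CCK- libraries of a letter are from the same mouse. The correlation of their deviations from the group means was 0.0773 to 0.124 over the 6 pairs of a letter and −0.0826 to −0.0184 over 12 pairs of different letters. Each library was thus most like that of its own letter, a hint from the data alone. Deviations from a group mean cancel over the libraries of the group, so the negative values follow from the positive ones and are no further observation. With the letter as a replicate block, 7671 genes passed between sorts (7431 without it) and 1 in the interaction, and no call of a peptide gene changed. In the fasted libraries alone 4012 genes passed between sorts. Without the trend, 119 genes passed between refed and fasted CCK+ cells (561 with it), 66 in CCK- cells (272 with it) and 2 in the interaction. A pseudocount of 10 left 0 in the interaction. The cause was not tested.

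Leaving out 1 library at a time gave 6520 to 7618 genes between sorts, 103 to 876 between refed and fasted CCK+ cells, 79 to 268 in CCK- cells and 1 to 6 in the interaction, with fewer libraries in the fit. The CCK+ count moved most without CCK+ fasted libraries A (876), B (193) and F (351), CCK+ refed libraries D (103) and E (183) and CCK- refed library D (333). The CCK- count moved without CCK+ libraries F (172), C (143), D (107) and E (165) and CCK- libraries A (101), B (92), F (144), C (119), D (79) and E (89). The interaction count was 5 without CCK+ library A, 3 without E, and 2, 3, 2 and 6 without CCK- libraries A, F, D and E. Signs turned within the ranges −0.33 to 0.50 for Sst between refed and fasted CCK+ cells, −0.61 to 0.90 for Cartpt and −1.20 to 0.14 for Ucn3 in CCK- cells, and −0.094 to 0.88 for Tac1 in the interaction. None of these passed a test. Rescaling moved the median gene by 0.20 between refed and fasted CCK+ cells, with 51.5% of calls higher before and 77.4% after, and by 0.12 in the interaction.

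In the droplet library Iapp, Cartpt, Ucn3 and Tac1 each stayed highest in the same range under every alternative run, and for Sst the rule itself sets the range. With more than 500 genes per cell Sst was 2500, Iapp 116, Cartpt 15.3 and Tac1 6.42 per 10000. With more than 1500 genes Sst was 2513, Iapp 133, Cartpt 10.9, Ucn3 1.06 and Tac1 7.35. With the order of the rules reversed they were 2415, 116, 13.4, 1.02 and 5.97. Above the Cell Ranger 2 UMI limit Iapp was 129, Cartpt 9.86 and Ucn3 1.05. With limits doubled Sst was 2644, Iapp 127, Cartpt 16.8 and Tac1 6.29. The Tph1 range held 2492 cells in the main run, 3080 with more than 500 genes, 901 with more than 1500 genes and 806 above the UMI limit. Stricter depth limits thus lowered Cartpt, and the cause was not tested. Leaving out cells that met more than 1 rule moved Cartpt, Ucn3 and Tac1 by no more than counting error. It removed no Sst-high cell, although some also had Ghrl or Gip at 500 or more, so it could not move Sst or Iapp. The 1 library shows nothing of the spread between mice.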
